A study of Mus musculus with 20 samples.

Results

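The genes described here encode the proteins that smooth muscle cells use to build and restrain their contractile filaments: the actins Acta2 and Actg2, the actin-bundling protein transgelin (Tagln), the calponins Cnn1 and Cnn2, the tropomyosins Tpm1 and Tpm2, the myosin regulatory light chain Myl9 and caldesmon (Cald1). They are 9 of the 23361 entries of the deposited gene tables, taken by symbol with earlier results of these data known, and all 9 symbols occur there. Polyadenylated RNA was sequenced from mouse embryonic stem cells on their way to epiblast stem cells, which are pluripotent cells of a later, primed kind. The lines PGK (female) and E14 (male) were each sampled at 5 stages in 2 differentiation experiments, diff2 and diff3, which gives 10 groups of 2 libraries and 20 libraries in all. Day 0 cells were in 2i medium, and every later stage was in N2B27 with activin A and Fgf2 on fibronectin, with a first split at day 4.

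The 2 late stages pool days: in PGK they hold days 23 and 21, then day 29 in both experiments, and in E14 days 21 and 19, then days 27 and 30, with diff2 named first. With 1 line of each sex, effects of sex and of line cannot be told apart. The labels name no separate cultures within an experiment, so p-values measure the spread between these samples only. The 6 diff2 libraries of days 0, 4 and 10 have an extra code in their titles, which the other libraries lack, and the diff3 day 0 libraries are labelled as cells between the stem cell and epiblast states. Depth ran from 2020254 to 26936415 counts per library. The shallow libraries were E14 diff3 at day 0 (3376500 counts) and day 4 (2020254), where 3 counts correspond to 0.888 and 1.48 CPM (counts scaled to a common library total), against 0.111 to 0.253 CPM elsewhere. Naive pluripotency markers fell and primed markers rose at day 4 in both lines. All 7 naive markers tested were lower in each line, and 5 of 6 primed markers in PGK and 6 of 6 in E14 were higher. Of all genes tested at day 4, edgeR called 6.44% lower and 8.35% higher in PGK, and 4.4% lower and 5.16% higher in E14.

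As background, smooth muscle contracts when phosphorylated myosin slides along actin filaments, with tropomyosin, calponin and caldesmon lying on the filament and holding the interaction in check. Many of these genes are also active in non-muscle cells that spread and pull on a matrix. Their promoters are classic targets of serum response factor (SRF), which binds a short element called the CArG box together with either myocardin or the actin-sensing coactivators MRTF-A and MRTF-B (Mkl1 and Mkl2).

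The CArG box was therefore looked for in the 250 bases before each annotated start in the RefSeq promoter table (GRCm38.p6), and the stretches that hold it are shown for the members with a full box and for Acta2, whose time course stood apart. The table holds windows for 7 of the 9 members, with none for Tagln and Actg2. A full box, a pattern of 10 bases that is its own reverse complement, was present in 2 of these 7 genes, Cnn2 and Myl9. A full box or a match 1 base short of it was present in 5: Acta2, Cnn2, Myl9, Tpm1 and Cald1. Of all 32851 windows in the table, 1.47% held a full box and 18.6% held a full box or a match 1 base short. Those shares are per window, whereas the member counts are per gene. The 32851 windows belong to 27025 genes, and the 7 members have 8 windows. Cald1 has 2 windows, with a match in the first only. The windows of Cnn1 and Tpm2 held neither a full box nor a match 1 base short, which says only that these letters are not in those windows. Capitals mark the full and the 1-base-short matches, each sequence is written 5′ to 3′ on the strand of its gene, and a match is a description, not a site or a cause.
Acta2, chr19:34255438-34255467, minus strand, 94 to 65 bases before the start, 1 base short: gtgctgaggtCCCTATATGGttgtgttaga
Acta2, chr19:34255388-34255417, minus strand, 44 to 15 bases before the start, 1 base short: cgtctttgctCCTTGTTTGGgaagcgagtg
Cnn2, chr10:79988430-79988555, plus strand, 170 to 45 bases before the start, 1 full box: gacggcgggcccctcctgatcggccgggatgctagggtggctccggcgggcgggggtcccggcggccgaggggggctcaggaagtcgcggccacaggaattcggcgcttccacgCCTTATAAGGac
Myl9, chr2:156775294-156775419, plus strand, 170 to 45 bases before the start, 1 full box and 1 match 1 base short: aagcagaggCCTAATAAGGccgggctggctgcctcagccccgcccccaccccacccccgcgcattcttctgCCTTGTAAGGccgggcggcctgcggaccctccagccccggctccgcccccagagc
Both Acta2 stretches lie wholly within annotated exon sequence of the gene in GENCODE, whose model begins further upstream, so their distances hold for the RefSeq start only. Of the 250 bases of its window, 217 are in such exons for Acta2, 193 for Tpm1 and 106 for Tpm2, while the Cnn2 and Myl9 stretches shown hold 0 exon bases. The remaining matches, all 1 base short, lay 221 to 212 and 80 to 71 bases before the start of Tpm1 and 203 to 194 before that of Cald1. The window of Srf itself held 2 full boxes, at 82 to 73 and 62 to 53 bases before its start.

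Most of the contractile genes had risen by day 4 after leaving 2i. Of the 9 members, 7 rose from day 0 to day 4 in PGK (Acta2, Tagln, Cnn1, Cnn2, Tpm1, Tpm2 and Myl9) at an adjusted p under 0.05 in edgeR's quasi-likelihood test with Benjamini-Hochberg adjustment, against 8.35% of all 15284 genes tested. In E14 7 of the 8 members tested rose in the same test, against 5.16% of 14501 genes, and Actg2 had too few counts to be tested. The median log2 fold change of the members was 3.33 in PGK, beside -0.01 over all genes tested, and 5.29 in E14, beside 0.15. Cald1 was the member with many counts that did not pass in either line. In bulk RNA, a larger share of expressing cells and more RNA per cell cannot be told apart.

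**Figure D1:**
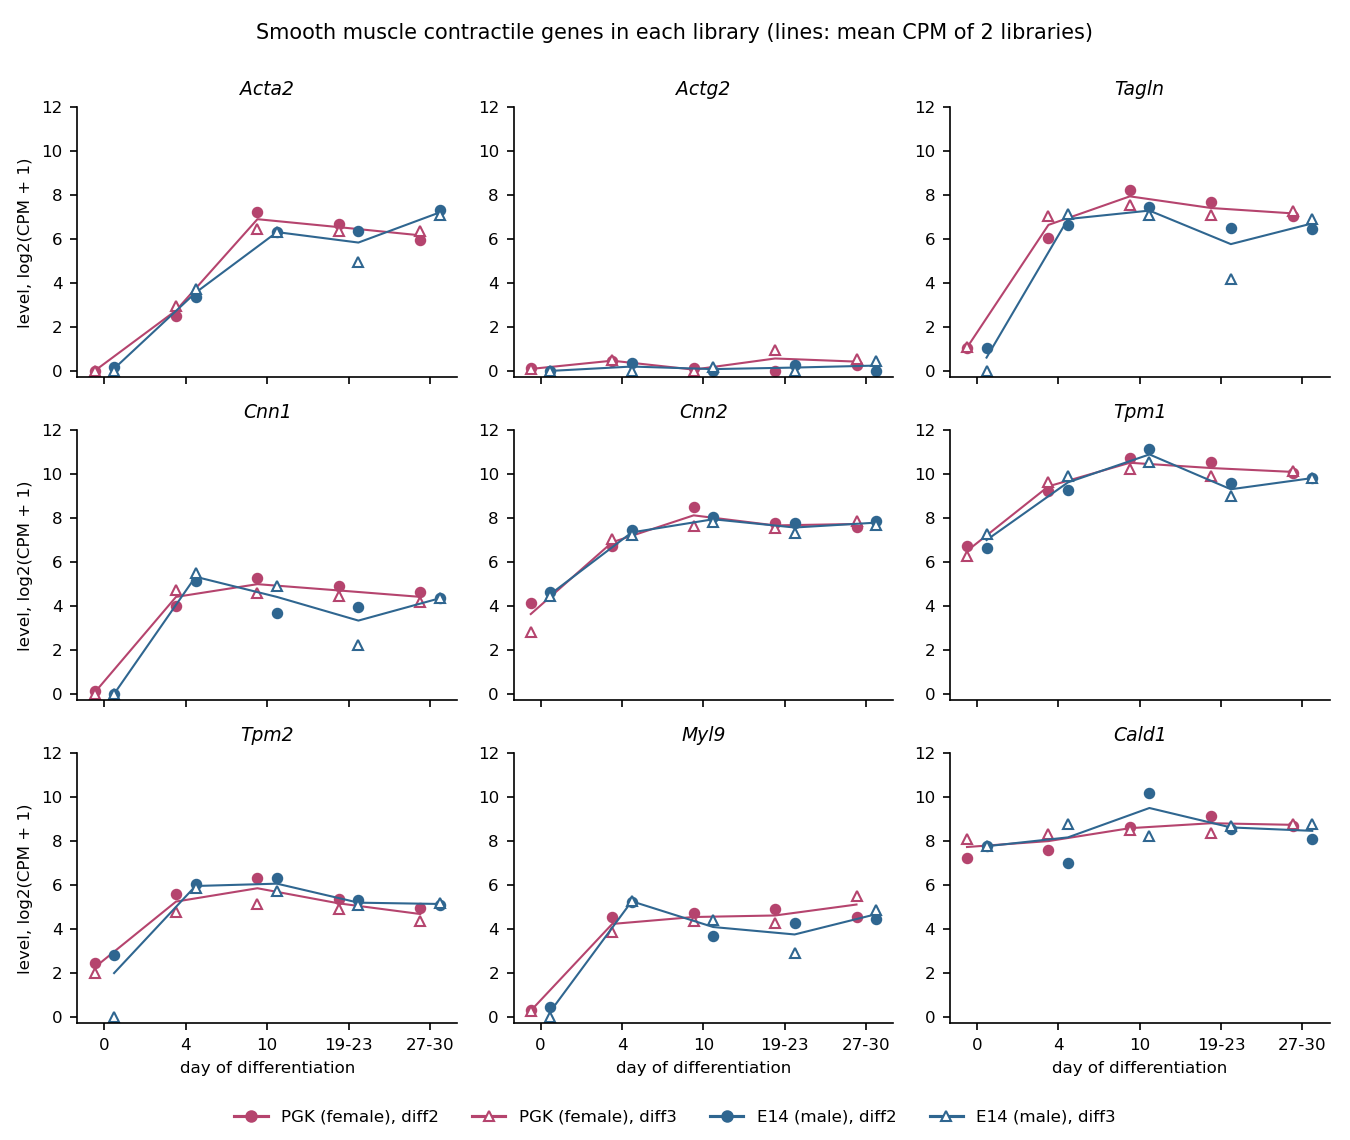
Level of each of the 9 genes as log2(CPM + 1) against stage in days, with 1 symbol per library (PGK red, E14 blue; diff2 circles, diff3 triangles) and lines through the mean CPM of each pair. Acta2, Tagln, Cnn1 and Myl9 start at 0 to 1.12 CPM, Tpm1 and Cald1 start at 75.7 CPM or more, and 7 of the 9 panels step up from day 0 to day 4.

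Acta2, the smooth muscle alpha actin on chr19:34241090-34255590, went from almost no reads to an abundant transcript, and did so later than its partners. In PGK it had 0 counts in both day 0 libraries, then 4.70 and 6.76 CPM at day 4, 152 and 86.1 at day 10, 103 and 81.5 at days 19 to 23, and 60.4 and 81.8 at days 27 to 30 (diff2 first, here and below). In E14 the values were 0.149 (2 counts) and 0 at day 0, 9.20 and 12.4 at day 4, 79.0 and 78.6 at day 10, 82.7 and 30.1 at days 19 to 23, and 158 and 137 at days 27 to 30. In both lines every day 4 library lay above every day 0 library and below every day 10 library.

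The PGK day 4 level of Acta2 was at least 64.4-fold higher than at day 0, taking 3 counts over both day 0 libraries as the floor. In E14 the ratio of pooled, depth-scaled counts was 80.7, with an exact 95% counting interval of 21.9 to 672. These floors and intervals cover counting error only. The fitted log2 fold changes were 9.79 (SE 0.89, adjusted p = 0.000187) in PGK and 6.43 (SE 0.82, adjusted p = 0.00119) in E14 by edgeR. A fitted fold change against a group at or near 0 depends on the prior count and is no bound.

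From day 4 to day 10 Acta2 increased again, 20.8-fold in PGK, from 5.73 ± 1.46 to 119 ± 46.5 CPM (SD, n = 2). Acta2 passed this comparison in PGK by edgeR, with a log2 fold change of 4.33 (SE 0.39, edgeR adjusted p = 0.00303), against 1.05% of genes called higher there. The other members did not pass that fit, whereas DESeq2 also called Tagln (adjusted p = 0.0437) and Tpm1 (adjusted p = 0.0312). Without the filter on low counts edgeR also called Tpm1 (adjusted p = 0.0198), and without the PGK diff3 library of day 4 it also called Tagln (adjusted p = 0.0388). In E14 its mean was 7.30-fold higher at day 10 than at day 4, 10.8 ± 2.24 against 78.8 ± 0.283 CPM, and this missed the threshold (log2 2.89, SE 0.54, edgeR adjusted p = 0.0779). DESeq2, edgeR without a filter on low counts and an edgeR fit of all 20 libraries each called the E14 change, with adjusted p of 0.000124, 0.00237 and 0.00803. This comparison and the day 4 against day 0 comparison share their day 4 libraries.

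The delay of Acta2 can be read as a share of the final level. At day 4 its mean was 8.06% of its mean at days 27 to 30 in PGK and 7.30% in E14. The other 7 members with more than a few reads stood at 52.8% to 150% of theirs in PGK and at 73.4% to 202% in E14. By day 10 Acta2 stood at 167% in PGK and 53.3% in E14. These shares are a description, since no test compared the timing of the genes.

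**Figure D2:**
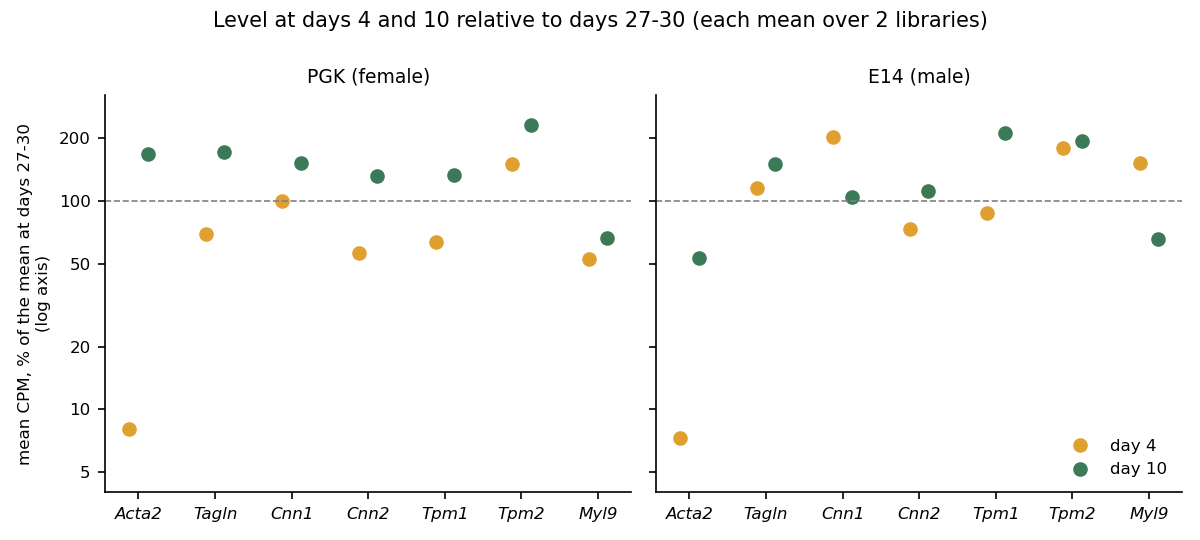
Mean CPM over 2 libraries at day 4 and at day 10 as a percentage of the mean at days 27 to 30 (log axis), for the 7 genes that rose, with PGK on the left and E14 on the right and a dashed line at 100%. At day 4 Acta2 lies at 8.06% and 7.30%, below Tagln, Cnn1, Cnn2, Tpm1, Tpm2 and Myl9, which lie at 52.8% or above.

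Actg2, the smooth muscle gamma actin on chr6:83512905-83536265, stayed near the detection limit throughout. It had between 0 and 24 counts per library and at most 0.960 CPM. PGK showed 2 counts over both day 0 libraries and 14 over both day 4 libraries, a ratio of 6.53 with an exact 95% counting interval of 1.499 to 59.2, and E14 showed 0 and 4. The PGK comparison had an edgeR adjusted p of 0.476. The actin genes are close in sequence, so reads of such a rare actin can also be misassigned from its relatives, and its values are uncertain.

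Transgelin, an actin-bundling protein used as an early smooth muscle marker, was almost silent at day 0 and present in every library from day 4 on. Tagln (chr9:45929619-45936058) measured 1.06 and 1.12 CPM at day 0 in PGK, then 64.6 and 134 at day 4, 305.1 and 186 at day 10, 203 and 136 at days 19 to 23, and 129.9 and 156 at days 27 to 30. In E14 it measured 1.04 and 0 at day 0, 98.6 and 141 at day 4, 177 and 135 at day 10, 90.2 and 17.1 at days 19 to 23, and 87.7 and 120.3 at days 27 to 30. Day 0 and later libraries did not overlap in either line, and the E14 diff3 library of day 19 was the lowest of all libraries after day 0.

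Tagln rose 91.1-fold by day 4 in PGK (log2 6.44, SE 0.49) and 229-fold in E14 (log2 7.33, SE 0.98), with edgeR adjusted p of 5.49e-05 and 0.00148. The E14 fold rests on 14 counts at day 0, all from diff2. From day 4 to day 10 the PGK libraries did not overlap, with a log2 fold change of 1.27 that did not pass the threshold (edgeR adjusted p = 0.152), whereas the E14 libraries overlapped. Tagln overlaps Pcsk7 and Gm48529 on the opposite strand. The libraries were made with a stranded kit, but whether counting used the strand is not given in the sources used here, so reads of Tagln and of these neighbours may not be fully separated.

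The calponins bind actin and slow the myosin motor. Cnn1 (chr9:22099216-22109630), the form most restricted to smooth muscle, was off at day 0, with 1 count over both PGK libraries and none over both E14 libraries. At day 4 it measured 14.9 and 25.8 CPM in PGK and 34.0 and 44.5 in E14. At day 10 the values were 38.3 and 23.5 in PGK and 11.7 and 28.9 in E14. All day 4 libraries lay far above day 0, and at day 10 both E14 libraries lay below both of their day 4 libraries.

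The PGK day 4 to day 0 ratio of Cnn1 was 724, with an exact 95% counting interval of 130 to 28648, and the E14 level at day 4 was at least 220-fold higher than at day 0. Both changes passed the edgeR test, with adjusted p of 0.000144 and 0.00217. In E14, Cnn1 had the largest fitted log2 fold change of all 14501 genes tested in that comparison, 12.33 with a wide SE of 1.65, but a group without counts stands behind it. Later Cnn1 levels were 29.5 and 20.8 CPM at days 19 to 23 and 23.8 and 17.0 at days 27 to 30 in PGK, and 14.6, 3.63, 19.6 and 19.3 in the same order in E14. In PGK its day 4 mean was already 99.8% of the mean at days 27 to 30, and in E14 it was 202%.

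Cnn2 (chr10:79988584-79996062), the calponin found more widely in non-muscle cells, was expressed at day 0 and rose less in fold. PGK libraries went from 16.7 and 6.12 CPM at day 0 to 107 and 130.4 at day 4, 359 and 199 at day 10, 220.03 and 185 at days 19 to 23, and 194 and 229.8 at days 27 to 30. E14 libraries went from 23.7 and 20.7 to 174 and 150.5, then 266 and 226, 220.5 and 159, and 234 and 208. Its rise at day 4 was 10.4-fold in PGK (log2 3.33, SE 0.45, edgeR adjusted p = 0.000973) and 7.30-fold in E14 (log2 2.89, SE 0.33, edgeR adjusted p = 0.000816). In both lines the day 10 libraries lay above the day 4 libraries, with log2 fold changes of 1.20 and 0.60 that did not pass (edgeR adjusted p = 0.245 and 0.647).

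Tropomyosins are coiled coils that lie along actin filaments and control which other proteins can bind. Tpm1 (chr9:67022590-67049406) was the most abundant member per length from day 4 on. In PGK it measured 104 and 75.7 CPM at day 0, 600.2 and 795 at day 4, 1726 and 1213 at day 10, 1517 and 970.0 at days 19 to 23, and 1057 and 1144 at days 27 to 30. In E14 it measured 100.3 and 154 at day 0, 617 and 965 at day 4, 2298 and 1524 at day 10, 763 and 509 at days 19 to 23, and 895 and 917 at days 27 to 30. Day 0, day 4 and day 10 libraries formed 3 steps without overlap in both lines. In E14 the means of the late stages, 636 ± 179.8 and 906 ± 15.6 CPM, lay below that of day 10, 1911 ± 547 CPM.

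Tpm1 rose 7.76-fold by day 4 in PGK (log2 2.90, SE 0.30) and 6.22-fold in E14 (log2 2.68, SE 0.38), with edgeR adjusted p of 0.000240 and 0.00205. The further difference at day 10 was 1.04 (SE 0.29) and 1.26 (SE 0.36) on the log2 scale, with edgeR adjusted p of 0.125 and 0.247. In PGK this call depended on the tool, with an adjusted p of 0.0312 in DESeq2 and 0.0198 in edgeR without the filter on low counts. From day 10 to days 19 to 23 in E14 the log2 difference was -1.62 (SE 0.36), which missed the threshold in edgeR (adjusted p = 0.288) and passed in DESeq2 (adjusted p = 0.0248).

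Tpm2 (chr4:43514711-43523765) was less abundant than Tpm1 in every library. Its PGK libraries held 4.46 and 3.04 CPM at day 0, 47.5 and 26.6 at day 4, 79.4 and 34.4 at day 10, 40.5 and 29.4 at days 19 to 23, and 30.1 and 19.3 at days 27 to 30. Its E14 libraries held 5.97 and 0, 65.5 and 56.9, 79.8 and 52.1, 38.4 and 33.1, and 32.6 and 35.9. The day 4 rise passed in PGK (log2 3.24, SE 0.51, edgeR adjusted p = 0.00214) and in E14 (log2 4.16, SE 0.96, edgeR adjusted p = 0.0227). The E14 call was lost when either day 4 library was left out, with adjusted p of 0.0915 without diff2 and 0.0995 without diff3. In 5 of 5 pairs of early libraries with counts in both experiments Tpm2 was higher in the coded diff2 library than in the uncoded diff3 library, by 1.15 to 2.31-fold. In the late pairs, where neither library is coded, diff2 stood at 1.38 and 1.56 times diff3 in PGK and at 1.16 and 0.909 times in E14. The part of the library code or of the experiment in its values was not tested. Tropomyosin genes share long stretches of sequence, so the split of reads between Tpm1 and Tpm2 is uncertain.

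Myl9 (chr2:156775420-156781658) encodes the regulatory light chain whose phosphorylation starts smooth muscle contraction. It had 3 and 4 counts in the PGK day 0 libraries and 5 and 0 in those of E14. The PGK libraries then measured 22.1 and 13.5 CPM at day 4, 25.3 and 19.4 at day 10, 28.7 and 18.4 at days 19 to 23, and 22.4 and 44.9 at days 27 to 30. The E14 libraries measured 36.7 and 38.1 at day 4, 11.9 and 20.2 at day 10, 18.4 and 6.54 at days 19 to 23, and 20.7 and 28.4 at days 27 to 30. PGK libraries after day 0 overlapped between neighbouring stages, while both E14 libraries of day 10 lay below both of day 4.

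Myl9 rose 82.6-fold by day 4 in PGK (log2 6.29, SE 0.62, edgeR adjusted p = 0.000181) and 201-fold in E14 (log2 7.11, SE 1.04, edgeR adjusted p = 0.00238). The lower E14 level at day 10 than at day 4 did not pass, with a log2 difference of -1.20 (SE 0.75, edgeR adjusted p = 0.746). Nor did that of Cnn1, at -0.92 (SE 0.79, edgeR adjusted p = 0.870).

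Caldesmon, an actin-binding inhibitor of myosin, has a smooth muscle form and a non-muscle form made from the same gene, which these gene-level counts do not separate. Cald1 (chr6:34598500-34775473) was already high in 2i, at 150.3 and 273 CPM in PGK and 216 and 218 in E14. It measured 192 and 319 at day 4, 402 and 367 at day 10, 567 and 332 at days 19 to 23, and 414 and 441 at days 27 to 30 in PGK. The E14 values were 129 and 445, 1155 and 301, 371 and 417, and 269 and 438. Day 0 and day 4 libraries overlapped in both lines, and the E14 replicates differed by up to 3.84-fold at day 10.

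Cald1 did not pass at day 4 in either line, with log2 differences of 0.21 (SE 0.35, edgeR adjusted p = 0.750) in PGK and 0.43 (SE 0.62, edgeR adjusted p = 0.713) in E14. Its means at days 27 to 30 were 2.02-fold the day 0 mean in PGK (log2 0.93, SE 0.36, edgeR adjusted p = 0.0811) and 1.63-fold in E14 (log2 0.69, SE 0.62, edgeR adjusted p = 0.489). Without the PGK diff3 day 0 library, the PGK difference was 1.43 and passed (edgeR adjusted p = 0.0248). Cald1 overlaps 3 noncoding genes on the opposite strand, Gm13861, Npn2 and Gm14547.

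**Figure D3:**
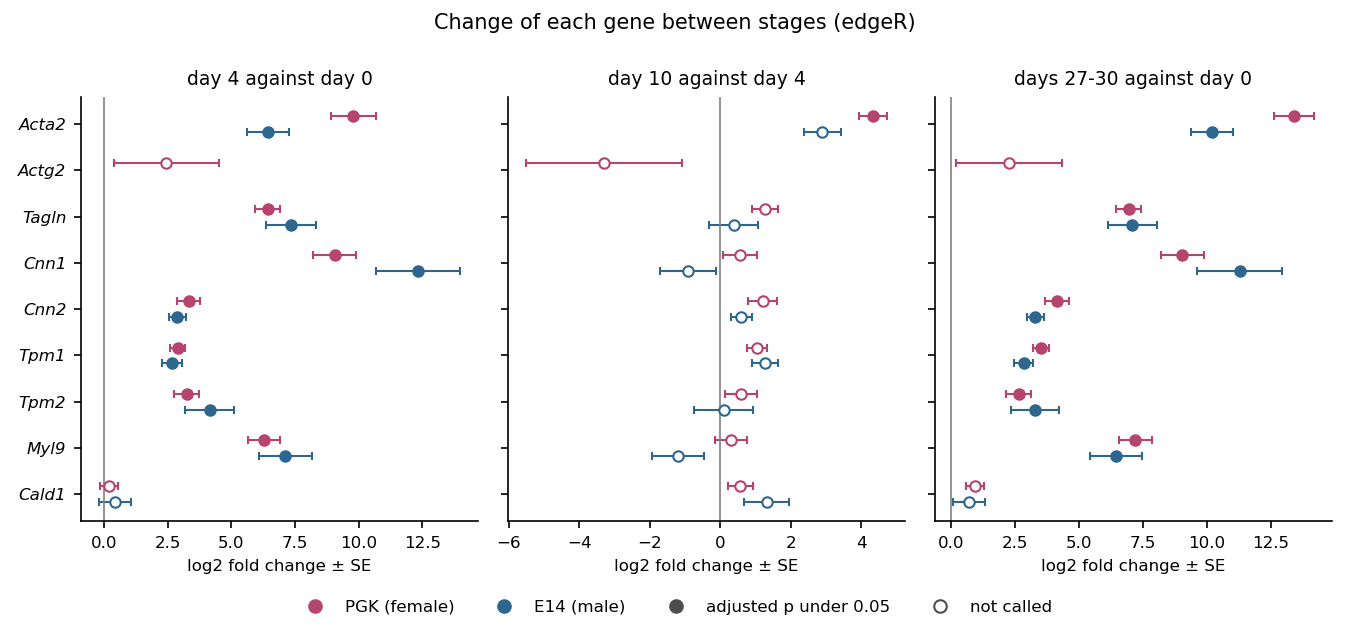
Fitted log2 fold change with its standard error from edgeR for each gene (PGK red, E14 blue) in 3 comparisons, with filled symbols for an adjusted p under 0.05, open symbols for the rest, and no E14 symbol for Actg2, which was not tested. In the day 4 against day 0 panel 7 genes are filled in each line and range from 2.68 to 12.33, and in the day 10 against day 4 panel PGK Acta2 at 4.33 is the one filled symbol.

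After day 10 no contractile gene passed a comparison between neighbouring stages. In PGK 0 of 9 members passed from day 10 to days 19 to 23 or from there to days 27 to 30, against 0% of genes called in each by edgeR. At an unadjusted p under 0.05 there were 0 of the 9 in both, beside 208 and 231 of all genes, and DESeq2 called 0 members in both. In E14 0 of 8 passed from day 4 to day 10 by edgeR, against 0.186% of genes called, while DESeq2 called 1, Acta2. There 2 members (Acta2 and Tpm1) had an unadjusted p under 0.05, beside 1250 of all 14501 genes tested. From day 10 to days 19 to 23 in E14, edgeR called 0 of 8, against 0% of genes, while DESeq2 called 1 lower. Of the members, 2 (Tagln and Tpm1) had an unadjusted p under 0.05, beside 938 of all genes. From days 19 to 23 to days 27 to 30 in E14, edgeR called 0 of 8, against 0% of genes, and DESeq2 called 0. In that comparison 1 member (Acta2) had an unadjusted p under 0.05, beside 106 of all genes. With 2 libraries a group, these comparisons had 5 residual degrees of freedom before moderation.

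The contractile genes stayed on to the last stage. Comparing days 27 to 30 with day 0, 7 of 9 members were higher in PGK, against 13% of genes called higher by edgeR, and 7 of 8 in E14, against 8.73%. This comparison shares its day 0 libraries with the day 4 comparison, so it is not independent of it. In PGK Acta2 had the largest log2 fold change of all 15284 genes tested, 13.39 (SE 0.79, edgeR adjusted p = 1.99e-05), from a group without counts. In E14 the pooled Acta2 ratio was 1232, with an exact 95% counting interval of 341 to 10179. Tagln was 131-fold and 199-fold above day 0 in PGK and E14, and Myl9 156-fold and 132-fold. Tpm2 had the weakest E14 call (log2 3.29, SE 0.93, edgeR adjusted p = 0.03995), which was lost without either E14 library of days 27 to 30, at adjusted p of 0.107 and 0.111.

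Per kilobase of exon, the order of the genes changed between the first and the last stage. The length joins all annotated exons of a gene: 12041 bases for Cald1, 6485 for Tpm1 and 1162 for Myl9. It can exceed the length of any 1 transcript, so the order between genes depends on the annotation. At day 0 in PGK the mean level was 17.6 ± 7.21 CPM per kb for Cald1, 13.9 ± 3.09 for Tpm1 and 4.64 ± 3.05 for Cnn2, and all others were at 1.29 or below. In E14 Tpm1 stood at 19.6 ± 5.89, Cald1 at 18.0 ± 0.146 and Cnn2 at 9.03 ± 0.859. At day 0 the means of Tpm1 and Cald1 differed by less than the sum of their SDs in both lines.

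At days 27 to 30 the PGK order was Tpm1 at 169.7 ± 9.41 CPM per kb, Cnn2 at 86.2 ± 10.2, Tagln at 72.0 ± 9.33, Cald1 at 35.5 ± 1.54, Acta2 at 32.4 ± 6.87, Myl9 at 28.97 ± 13.7, Tpm2 at 8.49 ± 2.62, Cnn1 at 7.44 ± 1.75 and Actg2 at 0.219 ± 0.119. Neighbours in this order whose means differed by less than the sum of their SDs were Cnn2 and Tagln, Cald1 and Acta2, Acta2 and Myl9, and Tpm2 and Cnn1. In E14 the order was Tpm1 at 139.7 ± 2.41, Cnn2 at 89.9 ± 7.29, Acta2 at 67.3 ± 6.71, Tagln at 52.3 ± 11.6, Cald1 at 29.3 ± 9.93, Myl9 at 21.1 ± 4.66, Tpm2 at 11.8 ± 0.793, Cnn1 at 7.11 ± 0.0593 and Actg2 at 0.118 ± 0.166. Here the means of Acta2 and Tagln, and those of Cald1 and Myl9, differed by less than the sum of their SDs.

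The members together took a mean of 318 CPM of the PGK libraries at day 0, 1252 at day 4, 2607 at day 10, 2242 at days 19 to 23 and 2033 at days 27 to 30. The E14 means were 370.3, 1509, 3223, 1387 and 1810. Tpm1 and Cald1 made up 64.1% to 97.1% of each library's sum, so the sum follows these 2 genes.

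The female and male lines were then compared directly, as the difference of their log2 fold changes in a fit of all 20 libraries. In edgeR 0 of the 8 members tested passed at day 4 against day 0, against 0.0763% of 15732 genes, and DESeq2 called 0. There 0 members had an unadjusted p under 0.05, beside 1165 of all genes. At day 10 against day 4 edgeR called 0, against 0.0127% of genes, and DESeq2 called 0. There 1 member (Acta2) had an unadjusted p under 0.05, beside 659 of all genes. At days 27 to 30 against day 0 edgeR called 0, against 0.0509%, with 0 by DESeq2 and 0 at an unadjusted p under 0.05, beside 1006 of all genes. A p that misses the threshold does not show that the lines act alike, and the standard errors leave room for large differences. For Acta2 the PGK change minus the E14 change was 3.24 (SE 1.85, edgeR adjusted p = 0.766) at day 4 and 1.44 (SE 0.64, edgeR adjusted p = 0.9999) from day 4 to day 10. For Cnn1 it was -3.38 (SE 2.97, edgeR adjusted p = 0.863) at day 4. The differences of Tpm1 and Cnn2 at day 4 were 0.25 (SE 0.46) and 0.47 (SE 0.53), with edgeR adjusted p of 0.964 and 0.899.

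In E14, the diff3 library of day 19 was low in contractile genes, a pattern seen after the values were known. It was the lowest of the 6 E14 libraries from day 10 on for 6 of the 9 members: Acta2, Tagln, Cnn1, Cnn2, Tpm1 and Myl9. Tagln stood at 17.1 CPM, or 14.2% of the median of the other 5 libraries, Cnn1 at 3.63 CPM (18.8%), Myl9 at 6.54 CPM (32.4%), Acta2 at 30.1 CPM (36.4%), Tpm1 at 509 CPM (55.5%) and Cnn2 at 159 CPM (70.1%). Tpm2 at 33.1 CPM (86.3%) and Cald1 at 417 CPM (112%) lay within the range of the others. Of 12765 genes with a median of at least 1 CPM, 17.5% were lowest in this library, and the shares of the other 5 libraries ran from 4.46% to 31.2%.

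Other gene groups moved in the same library. The 16 SRF and YAP target genes summed to 3529 CPM there and to 4899 to 6582 in the other 5 libraries, and 12 mesenchyme and fibroblast markers to 120.1 CPM against 143 to 393. The 10 mesendoderm and endoderm markers summed to 1516 CPM against 191 to 1157, and the 6 primed pluripotency markers to 2579 CPM against 1349 to 2401. Below all of the other 5 were also the 26 other smooth muscle genes, at 4409 CPM against 5279 to 8401, the 3 core pluripotency markers, at 386 against 506 to 1412, and the 4 endothelium markers, at 1.28 against 2.74 to 5.57. The 26 genes share Vcl, Flna, Tpm4 and Fhl2 with the SRF and YAP list, so the sums of those lists are not independent. The other 7 lists lay within the range of the 5 libraries. Srf stood at 67.3 CPM, the lowest of the 6, and Myocd at 13.3 CPM, which was not. The part of these shifts, of day 19 itself or of the library in the low contractile genes was not tested. With this library left out, the E14 log2 differences of days 19 to 23 against day 10 were 0.0069 for Acta2 and 0.12 for Myl9, in place of -0.53 and -0.42. The other 6 members tested kept negative differences without it. Tpm1 stood at -1.37 in place of -1.62 and Tagln at -0.85 in place of -1.58. The rest ran from -0.9986 (Cald1) to -0.22 (Cnn2). With the library included, the smallest edgeR adjusted p among the 8 was 0.288, for Tpm1. For the fit without it only the sizes are given.

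**Figure D4:**
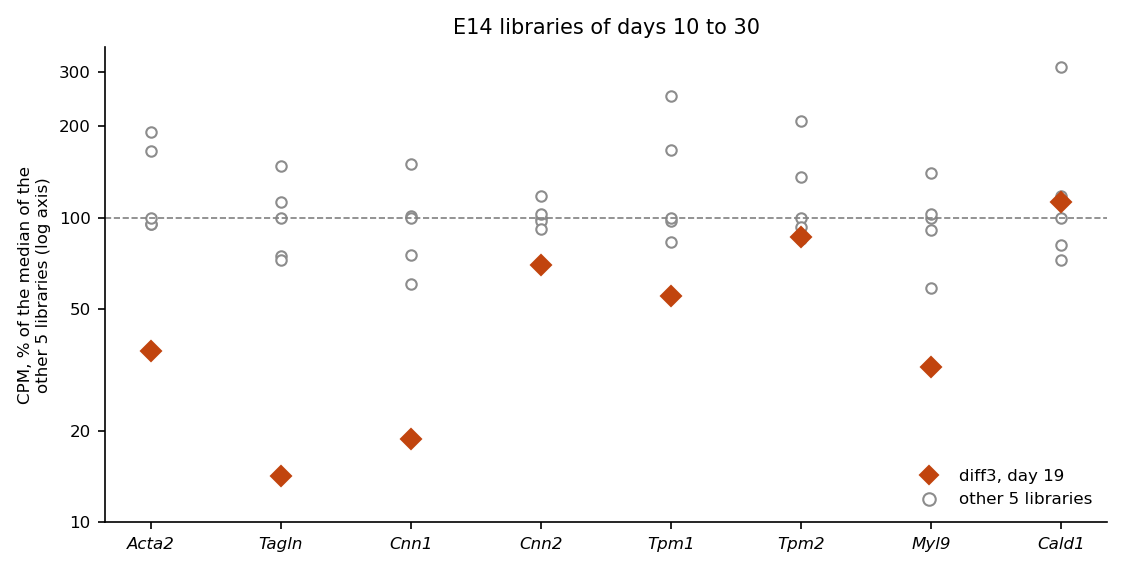
Level of 8 members in the 6 E14 libraries of days 10 to 30 as a percentage of the median of the other 5 libraries (log axis), with the diff3 day 19 library as a diamond and the other 5 as open circles. The diamond is the lowest symbol for Acta2, Tagln, Cnn1, Cnn2, Tpm1 and Myl9, from 14.2% to 70.1%, and lies among the circles for Tpm2 and Cald1.

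The regulators of the CArG box were read beside the members. Srf, the transcription factor that binds the box, rose at day 4 in both lines, from 46.3 ± 6.56 to 115 ± 15.9 CPM in PGK (log2 1.25, SE 0.31, edgeR adjusted p = 0.0236) and with a log2 fold change of 1.58 (SE 0.43, edgeR adjusted p = 0.0443) in E14. Its E14 libraries measured 35.1 and 59.2 CPM at day 0 and 184 and 87.1 at day 4. The coactivator genes Mkl1 and Mkl2 were present in every library, at 11.4 to 39.6 and 22.7 to 58.5 CPM, and were not called in the comparisons described. Of the 16 regulators, 3 were higher (Srf, Tead3 and Foxo4) and 2 lower (Klf4 and Elk1) by edgeR at day 4 in PGK, where 8.35% of all genes tested were higher and 6.44% lower. In E14 1 was higher (Srf), near the 5.16% of all genes, and 2 were lower (Klf4 and Tead1), against 4.4%. Klf4, a repressor of smooth muscle genes that also belongs to the naive network, had the smallest adjusted p and fell by 5.97 (SE 0.36, edgeR adjusted p = 2.05e-05) on the log2 scale in PGK. In E14 it fell by 7.71 (SE 0.47, edgeR adjusted p = 0.000101).

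Myocardin, the muscle coactivator of SRF, came up later than most members. Myocd had no counts in the PGK day 0 libraries and measured 0 and 0.274 CPM at day 4, 4.90 and 13.2 at day 10, 5.69 and 6.52 at days 19 to 23, and 16.003 and 14.9 at days 27 to 30. It rose from day 4 to day 10 in PGK (log2 5.81, SE 1.07, edgeR adjusted p = 0.0361), the comparison in which Acta2 also rose. In E14 Myocd was at 0.515 and 0.990 CPM at day 4 and still at 0.998 and 0.783 at day 10, when Acta2 had reached 79.0 and 78.6, and it then measured 18.7 and 13.3 at days 19 to 23 and 17.7 and 10.2 at days 27 to 30. Over the whole course Myocd rose in both lines, by 11.19 (SE 1.59, edgeR adjusted p = 0.00112) in PGK and 7.74 (SE 1.30, edgeR adjusted p = 0.00413) in E14 on the log2 scale. Its E14 day 0 libraries measured 0.0746 and 0 CPM, so these fitted changes from groups at or near 0 are no bound.

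**Figure D5:**
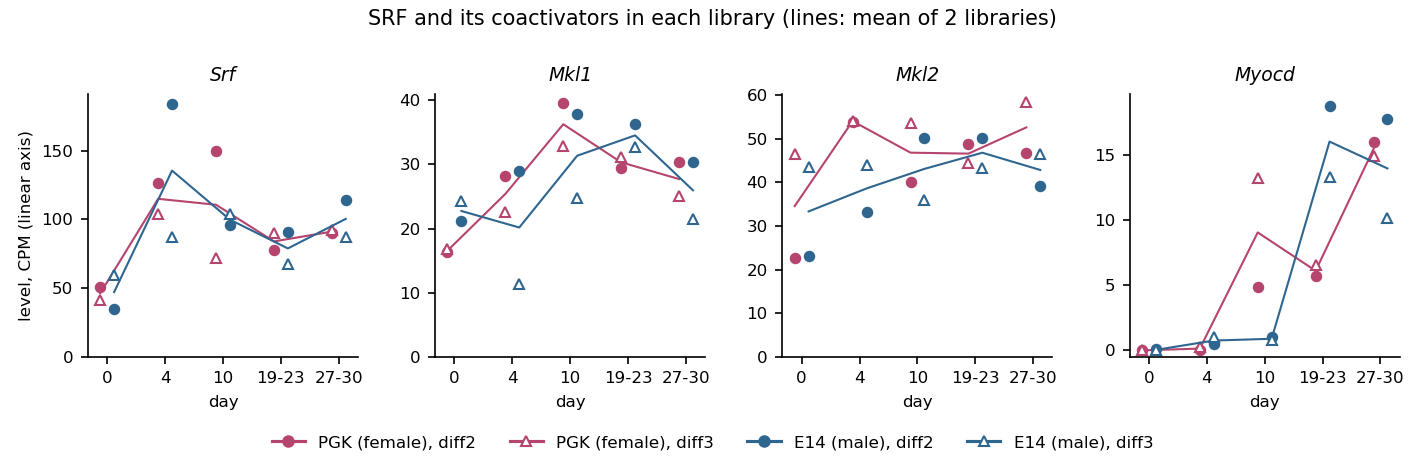
CPM on linear axes of Srf, Mkl1, Mkl2 and Myocd against stage in days, with 1 symbol per library (PGK red, E14 blue; diff2 circles, diff3 triangles) and lines through the mean of each pair. Srf is at 35.1 CPM or more in every library, whereas Myocd stays at or below 0.990 CPM through day 4 in both lines and at 0.998 or below through day 10 in E14.

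Lists of related genes outside the 9 had lower median changes at day 4 than the members' 3.33 and 5.29. Of 16 SRF and YAP target genes of the cytoskeleton, 7 passed the edgeR test at day 4 in PGK, all higher, against 8.35% of all genes. The median log2 fold change over the list was 1.09. In E14 6 passed, all higher, against 5.16% of all genes, with a median of 1.21. Zyxin, a focal adhesion protein, rose by 3.799 (SE 0.39, edgeR adjusted p = 0.000203) in PGK and 4.95 (SE 0.89, edgeR adjusted p = 0.00693) in E14, and Egr1, an immediate early transcription factor, by 7.09 (SE 0.78, edgeR adjusted p = 0.000314) and 7.92 (SE 0.86, edgeR adjusted p = 0.000721). By days 27 to 30, 11 of the 16 passed in each line, all higher, against 13% of all genes called higher in PGK and 8.73% in E14. Actg1, a cytoplasmic actin on this list, was lower in the coded diff2 library than in the uncoded diff3 library in 6 of 6 pairs, at 0.0224 to 0.111 of its level, so its change over time cannot be read across experiments.

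Of 26 other smooth muscle contractile and associated genes, 5 rose and 1 fell at day 4 in PGK, with a median of 0.52, and 6 rose and 1 fell in E14, with a median of 0.91, beside the shares of all genes given above. Among the 26, Vcl, Flna, Tpm4 and Fhl2 are also on the SRF and YAP list. The actin-binding scaffold protein gene Pdlim7 rose by 3.36 (SE 0.43, edgeR adjusted p = 0.000731) in PGK and 3.70 (SE 0.75, edgeR adjusted p = 0.0127) in E14, and filamin A (Flna), an actin crosslinker, rose by 1.94 (SE 0.25, edgeR adjusted p = 0.000756) in PGK. Csrp2 fell by 1.35 (SE 0.26, edgeR adjusted p = 0.00671) in PGK and Fhl1 fell by 2.09 (SE 0.40, edgeR adjusted p = 0.00933) in E14. At days 27 to 30 against day 0, 8 of 26 were higher and 1 lower in PGK, where 13% of all genes were higher and 12% lower. In E14 8 passed, all higher, against 8.73% of all genes.

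Several genes of mature smooth muscle and pericytes were low in every library. Smooth muscle myosin heavy chain (Myh11) measured 0 to 2.47 CPM over the 20 libraries, myosin light chain kinase (Mylk) 0 to 3.42, leiomodin 1 (Lmod1) 0 to 9.90, the pericyte proteoglycan gene Cspg4 0 to 0.959 and the potassium channel subunit gene Kcnmb1 0 to 1.87. The list of 9 mature smooth muscle and pericyte markers as a whole summed to 103 to 191 CPM at day 0 and 229 to 349 at day 4 in PGK, and to 159 to 220.3 and 274 to 597 in E14. From day 10 on the sum was 255 to 452 CPM in PGK and 249.5 to 861 in E14. Notch3, a receptor gene that many other cells express, made up most of it with 72.8 to 717 CPM, followed by smoothelin (Smtn) with 22.8 to 97.2, desmin (Des) with 0 to 59.0, Myocd with 0 to 18.7 and Rgs5 with 0 to 5.40. Among the 9 the smallest edgeR adjusted p at day 4 was 0.0605 in PGK, for Notch3, and 0.0784 in E14, for Kcnmb1. At days 27 to 30 against day 0, 3 of the 9 were higher in each line, Myocd, Rgs5 and Notch3 in PGK and Myocd, Rgs5 and Kcnmb1 in E14. Of all genes tested, 13% were higher in PGK and 8.73% in E14.

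Markers of other cell types that express contractile genes were read in the same libraries. The 12 mesenchyme and fibroblast markers summed to 23.7 to 71.0 CPM at day 0 and 32.2 to 66.4 at day 4 in PGK, and to 0.296 to 30.0 and 32.7 to 37.6 in E14, the interval in which 7 members rose. From day 10 on the sum was 203 to 330 CPM in PGK and 120.1 to 393 in E14. In PGK 1 of the 12 passed at day 4, Col1a1, which fell, and 2, Col1a1 and Col5a1, rose from day 4 to day 10. Of all PGK genes tested, 6.44% were lower at day 4 and 1.05% were higher from day 4 to day 10. In E14 2 of the 11 tested rose at day 4, Col1a2 and Dcn, against 5.16% of all genes. At days 27 to 30 against day 0, 7 of the 12 were higher in PGK, against 13% of all genes, and 4 of the 11 in E14, against 8.73%. Lum, Dcn and S100a4 did not exceed 2.16, 2.22 and 2.25 CPM. The part of mesenchymal cells in the members' levels from day 10 on was not tested.

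Several defining markers of cardiac and skeletal muscle were low. Nkx2-5 did not exceed 0.592 CPM, Tnnt2 2.93, Nppa 0.814, Myod1 0.589 and Myog 0.325. As a whole the 12 cardiac markers summed to 13.1 to 50.2 CPM over the PGK libraries and 17.5 to 94.9 over the E14 libraries, with the highest sums at days 19 to 23 in E14, where the calcium channel gene Ryr2 was at 35.9 ± 9.05 CPM and the myosin gene Myh7 at 17.5 ± 2.64 (SD, n = 2). The 9 skeletal markers summed to 50.2 to 83.3 CPM in PGK and 38.5 to 103.6 in E14 at day 0, and to 4.53 to 43.5 and 6.11 to 33.4 afterwards. At day 0 most of that sum was the light chain gene Mylpf, at 60.8 ± 19.7 CPM in PGK and 70.2 ± 44.8 in E14. The sarcomeric actin genes Acta1 and Actc1 rose at day 4 in both lines. Acta1 rose by 6.52 (SE 1.23, edgeR adjusted p = 0.00587) in PGK and 6.68 (SE 1.58, edgeR adjusted p = 0.0250) in E14 on the log2 scale, and Actc1 by 5.74 (SE 1.21, edgeR adjusted p = 0.0104) and 10.36 (SE 2.20, edgeR adjusted p = 0.0184). At day 0 Acta1 was at 0.0812 and 0.0468 CPM in PGK and 0.0746 and 0 in E14, and Actc1 at 0 and 0.0468 in PGK and 0 and 0 in E14. At day 4 Acta1 was at 3.30 and 9.36 CPM in PGK and 3.61 and 9.90 in E14, and Actc1 at 0.842 and 2.97 in PGK and 4.57 and 15.8 in E14. Fitted folds against such day 0 levels are no bound. Reads of the actin genes may be shared among them.

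The members varied together over the 20 libraries to different degrees, given here as Pearson r of log2 CPM with no test, since all points share the same libraries and the step at day 4. The highest values were 0.98 for Cnn1 with Myl9 and 0.97 for Tagln with Cnn1 and with Myl9. Cald1 had the lowest, from 0.41 to 0.64 with the others. Over the 12 libraries from day 10 on, where the step is absent, Tagln with Cnn1 kept 0.88 and Tagln with Tpm1 0.83, whereas Acta2 with Tpm2 had 0.25 and Tpm2 with Myl9 had -0.27. These 12 include the E14 diff3 library of day 19, the lowest of them for Tagln (17.1 CPM), Cnn1 (3.63 CPM) and Tpm1 (509 CPM). The part of that library in the high values was not tested, so they do not show that these genes vary together in the other libraries.

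By the same measure, over 20 libraries and 14500 genes, the profiles most like the mean of the members were those of Igfbp3, an insulin-like growth factor binding protein gene (r = 0.98), Coro2a, Fndc3c1, Ghr and Flnc, the muscle filamin (each r = 0.98). Igfbp3 averaged 2.88 CPM at day 0, 117 at day 4 and 482 from day 10 on, and Flnc 1.40, 79.9 and 197. The profile most like that of Acta2 was Krt18, a simple epithelial keratin (r = 0.98), with means of 4.07, 75.7 and 559 CPM, followed by Col8a2, Igfbp3, Cd40 and Prss23. For Tagln it was Trim67 (r = 0.98), followed by Pxdc1, Flnc, Myc and Ccnd2. For Cnn1 it was again Trim67 (r = 0.98), followed by Crmp1, Dusp6, Sox11 and Hs6st2, and for Tpm1 it was Ddr1 (r = 0.97), followed by Vgf, Vcl, Ghr and Bcl2l11.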

How the data were processed

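For each line the authors deposited 3 tables with the same genes: raw counts, a size-factor scaled signal, and variance-stabilized log2 values. When the signal was divided into the counts, the quotient was constant within a library to within 9.4e-10 of its value. Per the submitters' processing notes, CASAVA 1.8.2, Cuffdiff and DESeq2 were used with GRCm38 (mm10). Names of the aligner, annotation and counter were not given in the sources used here. From the counts, CPM was computed over each library's total, and CPM per kb over the joined length of all annotated exons in GENCODE, whose coordinates are given. Stages were compared in each line over its 10 libraries, and lines by an interaction over all 20, with edgeR 4.0.16 in R 4.3.3 (TMM, filterByExpr with a minimum count of 10, robust quasi-likelihood tests, Benjamini-Hochberg adjustment over all genes, threshold 0.05), tested on simulated data. Alternatives were DESeq2 1.42.0, limma 3.58.1 on the deposited log2 values, other size factors, no filter, terms for the experiment and for the library code, and leaving out libraries. The experiment name pairs libraries across stages: deviations from group means correlated at 0.42 to 0.55 in PGK and 0.13 to 0.24 in E14 among days 0, 4 and 10, and at medians of -0.02 and 0.00 between early and late stages. At days 0, 4 and 10 all diff2 libraries and no diff3 libraries carry the extra code, so experiment and code cannot be told apart there. No libraries were identical (Pearson r between replicates 0.912 to 0.992). The members and lists were chosen with earlier results of these data known. All members are named. From other lists up to 3 called genes with the smallest adjusted p are named, plus defining markers; Srf, Myocd, Acta1, Actc1, Actg1, Mkl1 and Mkl2 were singled out after their values were seen.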

Additional observations from a re-analysis of the deposited data

How the results depend on the processing

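The counts of contractile genes called at day 4 and at days 27 to 30 against day 0 held under every alternative run, at 7 and 7 to 8 of 9 in PGK and at 6 to 7 of 8 in E14, and no called change of a member reversed. From day 4 to day 10 in PGK, 1 member became 2 without the filter on low counts, 3 with DESeq2 (Tagln and Tpm1 added, adjusted p = 0.0437 and 0.0312) and 1 to 2 on leaving out a library (Tagln added without the PGK day 4 diff3 library, adjusted p = 0.0388). In E14 that count went from 0 to 1 with each of no filter, DESeq2 and the fit of all 20 libraries, and from day 10 to days 19 to 23 from 0 to 1 with DESeq2. For the difference between lines, leaving out the E14 day 0 diff2 library put Tpm2 at -9.88 at day 4 and at -9.60 at days 27 to 30. That fit left 1 E14 day 0 library, the shallow diff3 library, in which Tpm2 had 0 counts, so these values rest on that 0. With the experiment as a replicate block, the member counts were 7, 1, 0, 0 and 7 in PGK, 7, 0, 0, 0 and 7 in E14 and 0 in each difference between lines, so the pairing changed no member's call. Over all genes, PGK called 2260 at day 4 (3515 with DESeq2, 3698 with a term for the library code) and 231 from day 4 to day 10 (848, 655).

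Of 960 recomputed fold changes within a line, 913 kept their direction and side of the threshold, 9 passed newly, 4 were lost and 34 changed sign, and of 288 differences between lines 264, 2, 0 and 22. Of the 56 changes of sign, 51 followed leaving out 1 library, which also lets more genes through the filter. The cause was not tested. The log2 values then ranged as follows. PGK, day 4 against day 0: Cald1 -0.20 to 0.75. PGK, day 10 against day 4: Myl9 -0.0016 to 0.66 and Tpm2 -0.13 to 1.06. PGK, days 19 to 23 against day 10: Acta2 -0.70 to 0.088, Actg2 -2.57 to 6.26, Cald1 -0.21 to 0.57, Cnn1 -0.59 to 0.086, Cnn2 -0.81 to 0.014, Myl9 -0.28 to 0.37, Tpm1 -0.59 to 0.0596 and Tpm2 -1.17 to 0.0093. PGK, days 27 to 30 against days 19 to 23: Actg2 -1.49 to 5.66, Cald1 -0.41 to 0.36, Cnn2 -0.053 to 0.20, Myl9 -0.065 to 0.95, Tagln -0.51 to 0.066 and Tpm1 -0.46 to 0.18. E14: Cald1 -0.71 to 1.07 at day 4, Tpm2 -0.16 to 0.32 from day 4 to day 10, then Acta2 -1.37 to 0.0069, Myl9 -1.29 to 0.12 and Cald1 -1.53 to 0.35 to days 19 to 23, and Cald1 -0.57 to 0.14 and Tpm2 -0.15 to 0.019 from there to days 27 to 30. Difference between lines, day 4: Acta2 -0.86 to 3.72, Cald1 -0.83 to 0.99, Cnn2 -0.11 to 1.34 and Tpm1 -0.061 to 0.64. Day 10 against day 4: Cald1 -1.92 to 0.45, Tpm1 -0.59 to 0.067 and Tpm2 -0.20 to 0.96. Days 27 to 30: Acta2 -1.03 to 3.54, Cald1 -0.11 to 0.75, Cnn1 -3.62 to 0.0904, Myl9 -4.56 to 1.26, Tagln -6.91 to 0.38 and Tpm2 -9.60 to 0.19. The Acta2 values of -0.86 and -1.03 came without the E14 diff2 day 0 library, with SEs of 1632 and 2024. The Cnn1 value of 0.0904 came without the PGK diff2 day 0 library, with an SE of 165. In those fits no day 0 library of either line had counts of the gene, so these differences and their signs cannot be estimated. Other changes of sign were Cald1 at -0.057 with a term for the library code and Actg2 at 0.088 with limma, in the PGK comparisons after day 10. Chosen after seeing the data, leaving out both shallow E14 libraries gave Cald1 -0.74 at day 4, and leaving out E14 diff3 day 19 gave Acta2 0.0069 and Myl9 0.12.

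With 2 libraries a group, small differences were not detectable. At day 0, Acta2, Actg2, Cnn1 and Myl9 had at most 5 counts in any library, so their folds have wide errors, and the shallow E14 libraries add to this at days 0 and 4.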
